A study of Mus musculus with 6 samples.

Results

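The BCL2 family was followed in a mouse podocyte line given siRNA against the transcription factor TFEB. The family was taken as 10 genes found by name among the 53715 genes of the deposited table. There are 3 pro-survival members (Mcl1, Bcl2 and Bcl2l1), 2 effectors of cell death (Bax and Bak1) and 5 BH3-only members (Bad, Bid, Bcl2l11, Bbc3 and Pmaip1). All 10 were present and all 10 had a mean of 1 FPKM or more (fragments scaled by gene length and library size), the level needed to enter the test. Podocytes are epithelial cells of the kidney glomerulus, and those used here were an immortalized line. Cells were expanded at 33 °C in 10% serum with interferon-γ, then differentiated for 10 to 14 days at 37 °C in 5% serum on 12 mg/ml type I collagen. Cells were transfected with TFEB siRNA (genotype given as TFEB knockdown) or, as the control, with scrambled siRNA (genotype given as WT), and each group had 3 RNA-seq libraries. All 6 libraries come from this 1 line. No label says that the replicates of a group were grown apart, and the p-values may therefore reflect technical spread alone.

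BCL2 family proteins decide whether the outer membrane of mitochondria stays closed. BAX and BAK form the pores that release cytochrome c and start the caspase cascade, pro-survival proteins such as MCL1, BCL2 and BCL-XL hold them back, and BH3-only proteins bind the pro-survival proteins or activate BAX and BAK. MCL1 is a short-lived protein whose supply depends on continued synthesis, and much of the control of the family lies in splicing, phosphorylation and degradation, which gene-level RNA values do not show.

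Libraries held 18062898 to 20010130 reads in the TFEB siRNA group and 20143910 to 20610888 in the scrambled group, as derived from the FPKM values. Tfeb, the target, had 0.639, 0.714 and 0.822 FPKM with TFEB siRNA and 1.80, 2.05 and 2.27 FPKM with scrambled siRNA (adjusted p = 0.00148 in limma for a log2 fold change of -1.05, SE 0.13; exact two-sided permutation p = 0.1, the smallest that 3 against 3 allows). Of 10 podocyte markers, 5, among them Nphs1 and Wt1, were below 1 FPKM on average, while Actn4, Cd2ap and Synpo were abundant. The tubule markers Lrp2, Aqp1 and Cdh16 were also abundant, and the 5 tubule markers summed to 235 to 273 FPKM in TFEB siRNA libraries and 227 to 289 FPKM in scrambled libraries. The summed level of the podocyte markers was 261 to 263 FPKM with TFEB siRNA and 274 to 294 FPKM with scrambled siRNA, and its part in the results below was not tested. All 5 endothelial markers were below 1 FPKM, with Emcn listed at 0. Of 4 mesangial markers 2 were below 1 FPKM on average. The mesangial marker Pdgfrb was at 31.7 ± 1.25 FPKM with TFEB siRNA and 31.9 ± 1.29 FPKM with scrambled siRNA. Of 5 leukocyte markers 4 were below 1 FPKM, and Cd68 was at 4.56 ± 0.743 and 5.76 ± 0.938 FPKM in the same order. Replicate 1 of both groups stood apart from replicates 2 and 3 on the second principal component, which held 19.3% of the variance.

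All 3 pro-survival transcripts fell after TFEB siRNA, whereas of the 7 pro-death transcripts only Bak1 passed the test, and it rose. With the replicate number as a block, Bbc3 passed as well and 2 members rose. Calls are at an adjusted p below 0.05 from limma on log2(FPKM + 0.5), adjusted by the Benjamini-Hochberg method over 12257 genes. Of the 10 members 4 were called, against 33.3% of all tested genes. The 3 that fell compare with 16.4% of tested genes called lower, and the 1 that rose with 16.9% called higher. The groups did not overlap for 6 of the 10 members, against 48.7% of tested genes. The family's share of calls was thus near that of tested genes at large. The median log2 fold change was -0.51 over the pro-survival members, 0.02 over the 7 pro-death members and 0.02 over all tested genes.

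**Figure D1:**
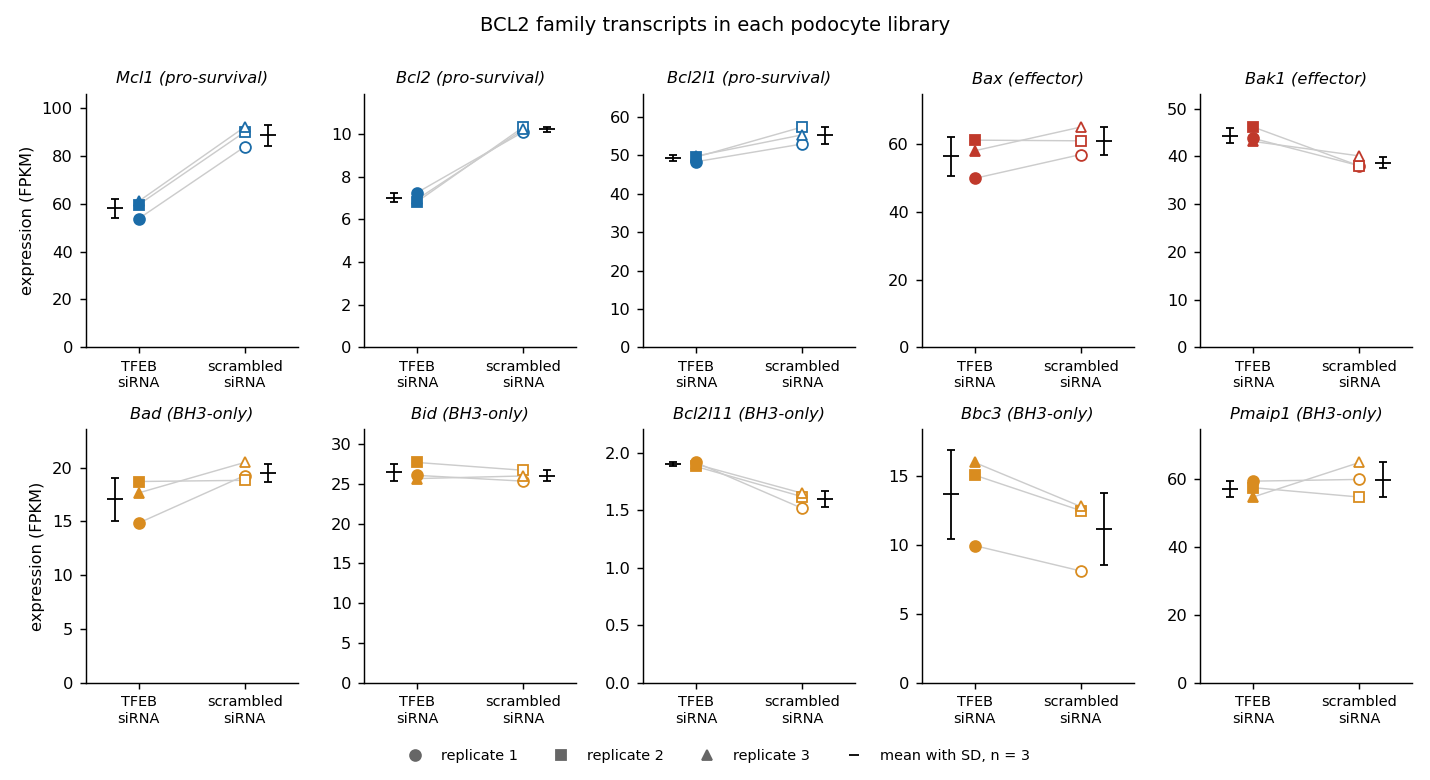
Expression in FPKM of each member (1 panel per gene, each axis from 0) in TFEB siRNA libraries (filled, left) and scrambled siRNA libraries (open, right), with grey lines joining equal replicate numbers and black marks giving the mean with its SD (n = 3). Mcl1, Bcl2, Bcl2l1 and, by a narrow margin, Bad lie lower in every TFEB siRNA library than in any scrambled library, and Bak1 and Bcl2l11 lie higher.

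Mcl1, the short-lived guardian against BAK and BH3-only proteins (ENSMUSG00000038612, chromosome 3, 95658788 to 95663176, plus strand, mm10), changed most among the members. It had 53.7, 59.5 and 60.9 FPKM with TFEB siRNA and 83.7, 89.9 and 91.9 FPKM with scrambled siRNA. Every TFEB siRNA library lay well under every scrambled one, and within each replicate number the gap was close to the same size. The mean of 58.0 ± 3.85 FPKM was 65.6% of the 88.5 ± 4.28 FPKM of the scrambled group (SD, n = 3 each; adjusted p = 0.00104 in limma for a log2 fold change of -0.61, SE 0.07). These values rest on 11431 reads in the TFEB siRNA group and 18886 in the scrambled group. Of the 12257 tested genes, 506 had a lower log2 fold change. In bulk RNA, a lower level in each cell and fewer cells that express a gene cannot be told apart.

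Bcl2, the founding pro-survival member (ENSMUSG00000057329, chromosome 1, 106538178 to 106714274, minus strand), had 7.25, 6.83 and 6.94 FPKM with TFEB siRNA and 10.1, 10.3 and 10.2 FPKM with scrambled siRNA. Libraries of 1 group were almost alike and the groups lay far apart. The mean fell to 7.01 ± 0.221 FPKM, against 10.2 ± 0.113 FPKM (68.6% of the scrambled mean, log2 fold change -0.51, SE 0.05, limma adjusted p = 0.000802). Bcl2l1, which encodes BCL-XL (ENSMUSG00000007659, chromosome 2, 152780668 to 152831728, minus strand), moved less. Its values were 48.3, 49.5 and 49.8 FPKM with TFEB siRNA and 53.0, 57.4 and 55.3 FPKM with scrambled siRNA, so the groups did not overlap but came within a few FPKM. On the log2 scale the change was -0.16, with an SE of 0.05 (limma adjusted p = 0.0421). This call was lost without TFEB siRNA replicate 1, 2 or 3 or scrambled replicate 2 or 3 (adjusted p = 0.0843 to 0.128), without replicate 1 of both groups (0.0666), and with no filter on low values (0.0602). Gene-level values pool the transcripts of each gene, among them short forms of Mcl1 and Bcl2l1 that are known to promote death.

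Short words in the 3′ UTRs of these genes are shown because earlier work on the same libraries found them more often in transcripts that fell or rose. Of 10474 tested genes with a 3′ UTR in GENCODE M21 (mm10), 25.7% of the 3510 that hold the word CTACATA, the word TACATAA, the word GGCCATG or the word GCCATGA were lower after TFEB siRNA, against 13.9% of the other 6964. The 1413 genes that hold GGCCATG were lower in 25.1% of cases and higher in 15.6%, and those that lack it in 16.7% and 18.3%. Genes that hold GCCATGA were lower in 23.1% of cases. The pooled share of 25.7% also takes in CTACATA, which no member holds and whose holders were lower in 34.4% of cases. The longest annotated 3′ UTR of Mcl1 holds GGCCATG at 2 places and that of Bcl2 at 1. That of Bcl2l1, which also fell, holds none of the 4 words. Bcl2l11, which did not fall, holds GGCCATG and GCCATGA at 1 place each. Bbc3 holds TCGGAGA, which with the word CGGAGAA, the word TGTCACG and the word GTCACGA was found more often in genes that rose, and the other 6 members hold none of the 8 words. UTRs with a word were longer (median of 2411 bases with one of the 4 falling words, against 970 without). The words were chosen on these libraries, the labels do not give the sequence of either siRNA, and the part of the words in any member's change was not tested. The sites, in mm10 and read along each transcript from 5′ to 3′ with the word in capitals, are as follows.
Mcl1, chr3:95661065-95661094, plus strand: aaacactgagaGGCCATGgagaaggacttc
Mcl1, chr3:95662800-95662829, plus strand: tttaggtccagGGCCATGAagacttggaga
Bcl2, chr1:106538687-106538716, minus strand: ttaagtgtgccGGCCATGtggctatgcggc
Bcl2l11, chr2:128160386-128160415, plus strand: acttggtcctgGGCCATGcccccctcctag
Bcl2l11, chr2:128161418-128161447, plus strand: agccctgccatGCCATGAattgcttcagct
Bbc3, chr7:16317248-16317277, plus strand: cccgggggacgTCGGAGActtggggggcag

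Of the 2 effectors Bak1 passed the test and Bax did not. Bak1, whose protein sits in the outer membrane and is held by MCL1 and BCL-XL (ENSMUSG00000057789, chromosome 17, 27019810 to 27029009, minus strand), had 43.8, 46.1 and 43.1 FPKM with TFEB siRNA and 38.0, 38.0 and 40.1 FPKM with scrambled siRNA. Each TFEB siRNA library was above each scrambled one. Bak1 rose to 44.3 ± 1.59 FPKM, against 38.7 ± 1.20 FPKM (log2 fold change 0.19, SE 0.05, limma adjusted p = 0.0256). The call was lost without TFEB siRNA replicate 1 or 2 or scrambled replicate 1 or 2 (adjusted p = 0.0561 to 0.0795), without replicate 1 of both groups (0.0850) and with values scaled to TPM (0.0690). Of the exonic bases of Bak1, 18.2% overlap exons of Ggnbp1 on the other strand, which was at 0.195 ± 0.0667 FPKM with TFEB siRNA and 0.208 ± 0.00662 FPKM with scrambled siRNA.

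Bax, the effector that moves from the cytosol to mitochondria (ENSMUSG00000003873, chromosome 7, 45461697 to 45466898, minus strand), had 49.9, 61.2 and 58.1 FPKM with TFEB siRNA and 57.0, 61.0 and 65.1 FPKM with scrambled siRNA. The groups overlapped, and replicate 1 was the lowest of its group in both. The mean was 56.4 ± 5.83 FPKM with TFEB siRNA and 61.0 ± 4.06 FPKM with scrambled siRNA (log2 fold change -0.12, 95% interval -0.32 to 0.09, limma adjusted p = 0.352), so a decrease of about the size of Bcl2l1's was within the interval and one of the size of Mcl1's was not. The ratio of Bak1 to Bax was 0.877, 0.754 and 0.742 in TFEB siRNA libraries and 0.668, 0.623 and 0.616 in scrambled libraries, with no overlap. Of the exonic bases of Bax, 12.2% overlap exons of Gm45808 on the same strand, a gene listed at 0 in both groups. Reads there may be hard to assign whatever the strand setting.

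TFEB is known to bind E-boxes with the core CACGTG. In RefSeq promoter windows of GRCm38.p6 (250 bases before to 50 after the annotated start), the 9 members other than Pmaip1 had 15 windows. CACGTG, which reads the same on both strands, was in 2 of these 15 windows, that of Bax with 2 matches and 1 of the 3 of Bbc3 with 1 match. It was in 7.15% of all 32851 windows and in 10.1% of the 10836 windows of tested genes. The longer TCACGTG, searched on both strands and always overlapping the shorter word, was in Bax, in 3.77% of all windows and in 6.17% of the windows of tested genes. Mcl1, Bcl2 and Bcl2l1, the members that fell, hold no CACGTG in these windows, and neither do most windows of tested genes. The 250 bases before the start are given for Bax, the only member with the longer word, and for Mcl1, the member that changed most, from 5′ to 3′ along the gene with CACGTG in capitals.
Bax, chr7:45466899-45467148, minus strand: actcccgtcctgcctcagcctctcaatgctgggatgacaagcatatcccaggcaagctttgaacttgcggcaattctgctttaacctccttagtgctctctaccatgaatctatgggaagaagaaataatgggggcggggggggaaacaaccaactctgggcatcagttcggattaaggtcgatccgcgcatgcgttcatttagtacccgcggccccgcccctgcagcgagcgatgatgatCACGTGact
Mcl1, chr3:95658471-95658720, plus strand: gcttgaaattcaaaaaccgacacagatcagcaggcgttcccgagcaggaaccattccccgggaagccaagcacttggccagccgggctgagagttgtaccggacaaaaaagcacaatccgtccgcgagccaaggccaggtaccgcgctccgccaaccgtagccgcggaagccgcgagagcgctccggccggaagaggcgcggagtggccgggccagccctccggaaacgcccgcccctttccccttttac

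None of the 5 BH3-only members passed the limma test, and none had an unadjusted p under 0.05 in it or passed limma-voom on derived reads, where 1 had an unadjusted p under 0.05. Bcl2l11, which encodes BIM, a strong activator of BAX that also binds every pro-survival protein, is the least abundant member. It had 1.92, 1.88 and 1.90 FPKM with TFEB siRNA and 1.52, 1.62 and 1.65 FPKM with scrambled siRNA. The groups did not overlap, yet the log2 fold change of 0.20 had a 95% interval of -0.02 to 0.41 (limma adjusted p = 0.143). The values rest on 877 reads in the TFEB siRNA group and 800 in the scrambled group.

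Bbc3, which encodes the p53 target PUMA, differed more between replicate numbers than between groups. It had 9.95, 15.1 and 16.0 FPKM with TFEB siRNA replicates 1, 2 and 3 and 8.11, 12.5 and 12.8 FPKM with scrambled replicates 1, 2 and 3. The groups overlapped, replicate 1 was low in both, and within each replicate number the TFEB siRNA library was higher, by 1.84, 2.57 and 3.20 FPKM. Without a block the log2 fold change was 0.28 (95% interval -0.24 to 0.81, limma adjusted p = 0.365). With the replicate number as a block the SE fell to 0.04 on the same fold change and Bbc3 passed (adjusted p = 0.00706), in a fit that called 40.2% of tested genes. It also passed without replicate 1 of both groups (0.0288), an alternative chosen after the data were seen. Whether equal numbers mark a shared culture or day is not given in the labels.

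Bad, a BH3-only protein that 14-3-3 proteins hold in the cytosol, had 14.8, 18.7 and 17.6 FPKM with TFEB siRNA and 19.3, 18.8 and 20.5 FPKM with scrambled siRNA. All TFEB siRNA values were lower, by a margin that was very small for replicate 2, and the test was not passed (log2 fold change -0.19, 95% interval -0.40 to 0.02, limma adjusted p = 0.137). Bid, which caspase-8 cleaves to link death receptors to mitochondria, averaged 26.5 ± 1.07 FPKM with TFEB siRNA and 26.0 ± 0.683 FPKM with scrambled siRNA. The log2 fold change was 0.02 (95% interval -0.10 to 0.15). Pmaip1, which encodes NOXA, a partner chiefly of MCL1, had 59.4, 57.5 and 54.8 FPKM with TFEB siRNA and 59.9, 54.7 and 64.9 FPKM with scrambled siRNA. The groups overlapped and the log2 fold change was -0.06 (95% interval -0.23 to 0.11, limma adjusted p = 0.551). Bad and Bid share exonic bases with neighbours on the other strand. Gpr137 beside Bad was at 7.05 ± 0.676 FPKM with TFEB siRNA and 7.69 ± 0.459 FPKM with scrambled siRNA, and Bcl2l13, a distant relative beside Bid that rose, at 10.1 ± 0.435 and 8.35 ± 0.516 FPKM in the same order, so where counting ignored strand a part of these reads could not be assigned.

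**Figure D2:**
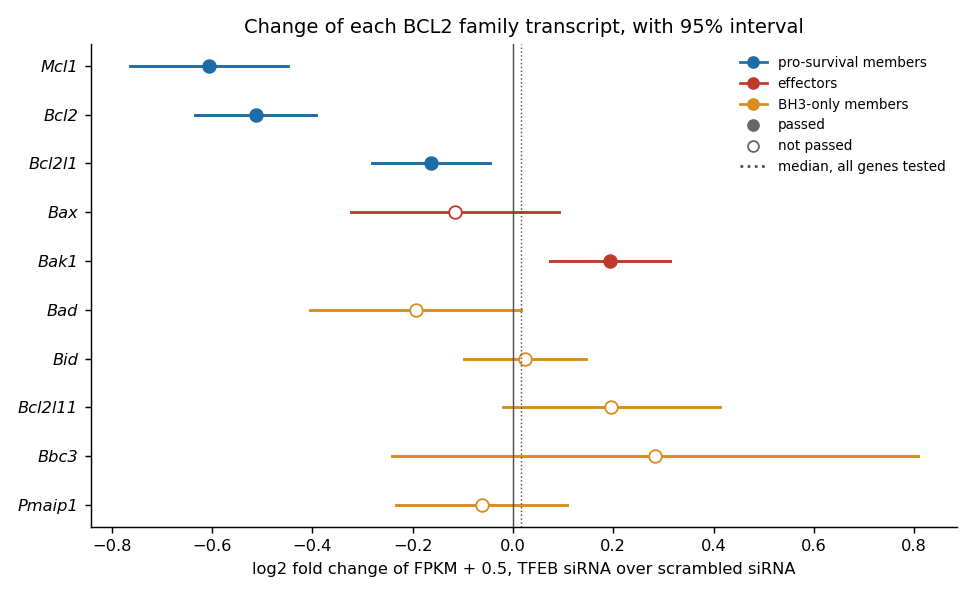
Log2 fold change of FPKM + 0.5, TFEB siRNA over scrambled siRNA, with its 95% interval from limma, for each member by role, where filled points passed at an adjusted p below 0.05 and the dotted line is the median of all tested genes (0.02). Mcl1 (-0.61) and Bcl2 (-0.51) lie far to the left of the other members, and the interval of Bbc3 is the widest.

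Set against each other within a library, the summed pro-survival transcripts were lower relative to the summed pro-death transcripts after TFEB siRNA. The summed FPKM of Mcl1, Bcl2 and Bcl2l1 was 109, 116 and 118 with TFEB siRNA and 147, 158 and 157 with scrambled siRNA. The sum of Bax and Bak1 was 93.7, 107 and 101.2 with TFEB siRNA and 95.02, 99.0 and 105 with scrambled siRNA, and that of the 5 BH3-only members was 112, 121 and 116 with TFEB siRNA and 114, 114 and 126 with scrambled siRNA. The pro-survival sums did not overlap between groups and the other sums did. Since the members were chosen, the sums carry no test.

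The ratio of the pro-survival to the effector sum was 1.14 ± 0.0492 with TFEB siRNA and 1.54 ± 0.0469 with scrambled siRNA (SD, n = 3 each). The ratio of the pro-survival to the BH3-only sum was 0.983 ± 0.0289 and 1.30 ± 0.0652 in the same order. The pro-survival sum was above the BH3-only sum in each scrambled library but in only 1 TFEB siRNA library. The TFEB siRNA ratios of 0.974, 0.959 and 1.01 were all close to 1, and with derived reads in place of FPKM the mean ratio was above 1 in both groups. A crossing of 1 thus depends on the unit. Pmaip1 made up 49.3% of the BH3-only sum with TFEB siRNA and 50.7% with scrambled siRNA. Bcl2 to Bax, a ratio often quoted for apoptosis, was 0.145, 0.112 and 0.119 with TFEB siRNA and 0.177, 0.169 and 0.157 with scrambled siRNA. Bcl2 made up 6.14% of the pro-survival sum with TFEB siRNA and 6.64% with scrambled siRNA, so this ratio leaves out most pro-survival transcript. Mcl1 made up 50.7% with TFEB siRNA and 57.5% with scrambled siRNA, and Bcl2l1 43.1% and 35.9% in the same order. Mcl1 to Bax was 1.03 ± 0.0534 with TFEB siRNA and 1.45 ± 0.0336 with scrambled siRNA, with no overlap. Bcl2l1 to Bax was 0.968, 0.809 and 0.858 with TFEB siRNA and 0.930, 0.940 and 0.850 with scrambled siRNA, and the groups overlapped. The lower sums thus do not hold for each pro-survival member set against Bax.

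**Figure D3:**
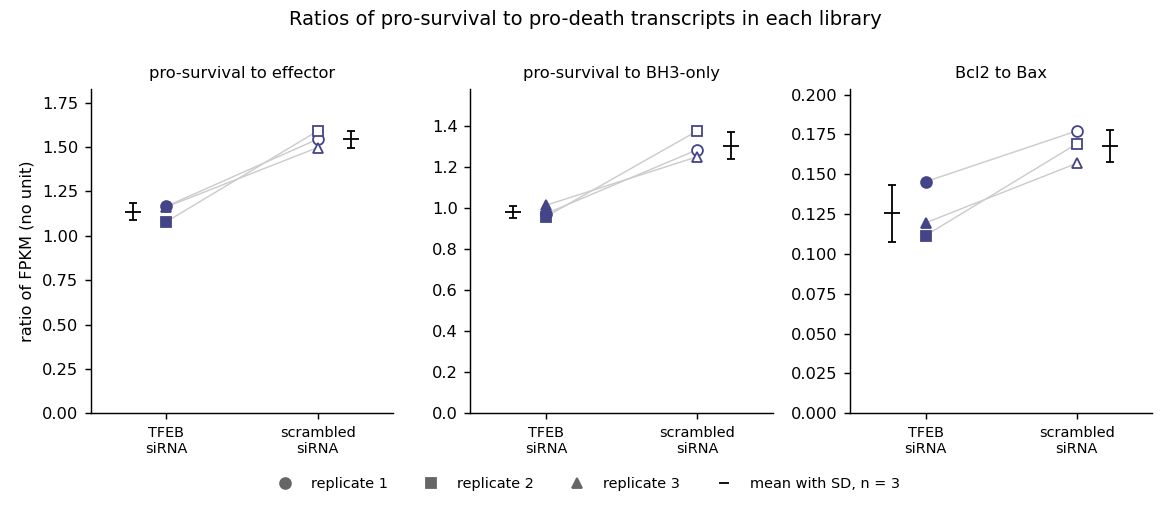
Ratios of summed FPKM in each library (axes from 0) for pro-survival to effector, pro-survival to BH3-only and Bcl2 to Bax, with TFEB siRNA on the left, scrambled siRNA on the right, and the mean with its SD (n = 3) beside the points. In all 3 panels every TFEB siRNA library lies below every scrambled library, with means of 1.14 against 1.54, 0.983 against 1.30 and 0.125 against 0.168.

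The order of the members by level (mean FPKM, which is per length) changed at its top. With TFEB siRNA, Mcl1, Pmaip1 and Bax stood at 58.0, 57.2 and 56.4 FPKM and neighbours in this order overlapped. With scrambled siRNA, Mcl1 at 88.5 FPKM stood clear of Bax at 61.0 FPKM, while Bax, Pmaip1 and Bcl2l1 overlapped with their neighbours. In both groups Bcl2l1, Bak1, Bid, Bad, Bbc3, Bcl2 and Bcl2l11 followed in that order. Bad and Bbc3 overlapped with TFEB siRNA, and Bbc3 and Bcl2 with scrambled siRNA.

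Other genes of the BCL2 family, from a list of 17, moved in both directions. Of the 8 with a mean of 1 FPKM or more, 3 rose and 2 fell, with a median log2 fold change of 0.20. These 5 are 62.5% of the 8, against 33.3% of all tested genes called. Bcl2l2, which encodes the pro-survival protein BCL-W, had 11.5 ± 0.214 FPKM with TFEB siRNA and 14.4 ± 1.12 FPKM with scrambled siRNA (adjusted p = 0.0118 in limma for a log2 fold change of -0.31, SE 0.07). Bnip3l, a BH3-like protein best known as a mitophagy receptor, fell to 33.4 ± 2.38 FPKM, against 49.7 ± 2.60 FPKM (adjusted p = 0.00139 in limma). Bnip1, at 2.30 ± 0.104 FPKM with TFEB siRNA and 1.72 ± 0.0213 FPKM with scrambled siRNA, and Becn1, the autophagy protein that BCL2 binds, at 10.2 ± 0.962 and 8.09 ± 0.454 FPKM in the same order, rose. Bnip1 lost its call without scrambled replicate 1, 2 or 3 or TFEB siRNA replicate 1 or 3 (limma adjusted p = 0.0599 to 0.0719). Becn1 lost it without scrambled replicate 1 or 3 or TFEB siRNA replicate 1 or 3 (0.0564 to 0.0650). Without replicate 1 of both groups neither passed (0.119 for Bnip1 and 0.101 for Becn1), nor with no filter on low values (0.0689 for Bnip1 and 0.0584 for Becn1).

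Below 1 FPKM lay 9 of the 17, among them Bcl2a1a, Bcl2a1b and Bcl2a1d, listed at 0 in all libraries. Bmf, a BH3-only gene singled out after its values were seen, had 0.955, 0.780 and 0.621 FPKM with TFEB siRNA and 0.238, 0.156 and 0.237 FPKM with scrambled siRNA. Every TFEB siRNA library was well above every scrambled one, with 90, 83 and 63 reads against 26, 17 and 26 reads. With no filter on low values Bmf passed (adjusted p = 0.0171 in limma for a log2 fold change of 0.85, SE 0.14), in a fit that called 11.8% of genes. Bcl2l15, seen the same way, had 16, 13 and 10 reads with TFEB siRNA and 34, 43 and 44 reads with scrambled siRNA (limma adjusted p = 0.0258 without the filter).

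Downstream of the mitochondria, the apoptosome and caspase list held 1 gene that rose and 3 that fell of 10 tested, with a median log2 fold change of -0.08. These calls are 40% of the list, against 33.3% of all tested genes called. Casp6, an executioner caspase, fell to 2.11 ± 0.0625 FPKM, against 3.73 ± 0.288 FPKM (adjusted p = 0.00130 in limma for a log2 fold change of -0.69, SE 0.08). Dffa, the inhibitor and chaperone of the nuclease that cuts DNA in apoptosis, rose to 5.49 ± 0.266 FPKM, against 3.86 ± 0.384 FPKM. Casp9 and Apaf1, which meet in the apoptosome, did not pass. Apaf1 averaged 14.1 ± 0.775 FPKM with TFEB siRNA and 13.5 ± 0.320 FPKM with scrambled siRNA.

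Among 7 tested inhibitors of apoptosis and their antagonists 1 rose and 1 fell, so 28.6% were called, against 33.3% of all tested genes. Birc5, survivin, which also serves in mitosis, rose to 7.15 ± 0.674 FPKM, against 5.33 ± 0.283 FPKM (limma adjusted p = 0.0105). Sept4, whose ARTS form antagonises XIAP, fell to 22.9 ± 1.53 FPKM, against 31.0 ± 3.50 FPKM (limma adjusted p = 0.0120; 0.0523 without replicate 1 of both groups). Of 7 death receptors and adaptors 1 rose and 2 fell, so 42.9% were called, against 33.3% of all tested genes. Tnfrsf10b, the mouse TRAIL receptor, had 14.8 ± 0.790 FPKM with TFEB siRNA and 18.8 ± 0.588 FPKM with scrambled siRNA (adjusted p = 0.00519 in limma). Fas stood at 17.5 ± 1.48 and 22.6 ± 2.79 FPKM in the same order, and Tnfrsf1a, the main TNF receptor, at 53.2 ± 5.25 and 41.9 ± 3.09 FPKM. The call of Fas was lost when TFEB siRNA replicate 1 or 2 or scrambled replicate 1 or 2 was left out (limma adjusted p = 0.0759 to 0.101), and that of Tnfrsf1a when TFEB siRNA replicate 1 or 3 or scrambled replicate 1 or 2 was left out (0.0508 to 0.0691). With no filter on low values the adjusted p was 0.0840 for Fas and 0.0635 for Tnfrsf1a in limma, and without replicate 1 of both groups 0.139 for Fas and 0.107 for Tnfrsf1a.

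The 14-3-3 proteins bind phosphorylated BAD. Of 6 tested, 5 rose and Ywhaz did not pass, with a median log2 fold change of 0.30, where 16.9% of all tested genes were called higher. Ywhag rose to 103 ± 4.17 FPKM, against 63.3 ± 4.45 FPKM (adjusted p = 0.000638 in limma for a log2 fold change of 0.70, SE 0.07), and Ywhab to 97.9 ± 4.99 FPKM, against 77.2 ± 3.78 FPKM (adjusted p = 0.00620 in limma). Among 7 tested regulators of MCL1 protein 1 rose and 2 fell, so 42.9% were called, against 33.3% of all tested genes. Usp9x, the deubiquitinase that stabilises MCL1, rose to 56.4 ± 4.34 FPKM, against 41.9 ± 0.796 FPKM (limma adjusted p = 0.00342). Fbxo4, part of a ubiquitin ligase, had 7.63 ± 0.677 FPKM with TFEB siRNA and 9.96 ± 0.577 FPKM with scrambled siRNA, and March5, a ubiquitin ligase of the mitochondrial outer membrane, 62.9 ± 2.29 and 72.8 ± 0.699 FPKM in the same order. The call of March5 was lost with TFEB siRNA replicate 1 left out (limma adjusted p = 0.0510) or scrambled replicate 3 (0.0516), and without replicate 1 of both groups (0.0687).

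Of 11 tested transcription factors known to control members, 1 rose and 1 fell, so 18.2% were called, against 33.3% of all tested genes. Ddit3, which encodes the stress factor CHOP and is known to act on Bcl2 and Bcl2l11, fell to 53.2 ± 1.17 FPKM, against 74.7 ± 6.55 FPKM (adjusted p = 0.00287 in limma for a log2 fold change of -0.48, SE 0.07). Foxo1 rose to 5.14 ± 0.566 FPKM, against 4.16 ± 0.0935 FPKM, and lost its call in 5 of the 6 fits that left out a library, all but that without TFEB siRNA replicate 2 (highest limma adjusted p = 0.123). Foxo1 also missed the threshold with the replicate block (0.0510), TMM scaling (0.0504), TPM (0.0653), no filter (0.105) and without replicate 1 of both groups (0.113). Trp53, the activator of Bbc3, Pmaip1 and Bax, averaged 31.4 ± 1.07 FPKM with TFEB siRNA and 28.6 ± 0.661 FPKM with scrambled siRNA and did not pass (limma adjusted p = 0.0800). Of 6 partners at the outer membrane 1 fell, Mtch2, the receptor for BID there (12.3 ± 0.857 FPKM with TFEB siRNA, 14.5 ± 0.707 FPKM with scrambled siRNA). This 1 call is 16.7% of the list, against 33.3% of all tested genes. The call of Mtch2 was lost when TFEB siRNA replicate 1 or 2 or scrambled replicate 1 or 3 was left out (limma adjusted p = 0.102 to 0.119), without replicate 1 of both groups (0.182) and with no filter (0.0801). Over the 8 lists together, 13 of 62 tested genes rose and 12 fell, with a median log2 fold change of -0.02; 40.3% were called, against 33.3% of all tested genes. With the replicate number as a block 15 rose and 20 fell, in a fit that called 40.2% of all tested genes. Without replicate 1 of both groups 9 rose and 7 fell, and the share of all tested genes called in that fit is not given here. Counts from different fits thus do not describe the lists alone.

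**Figure D4:**
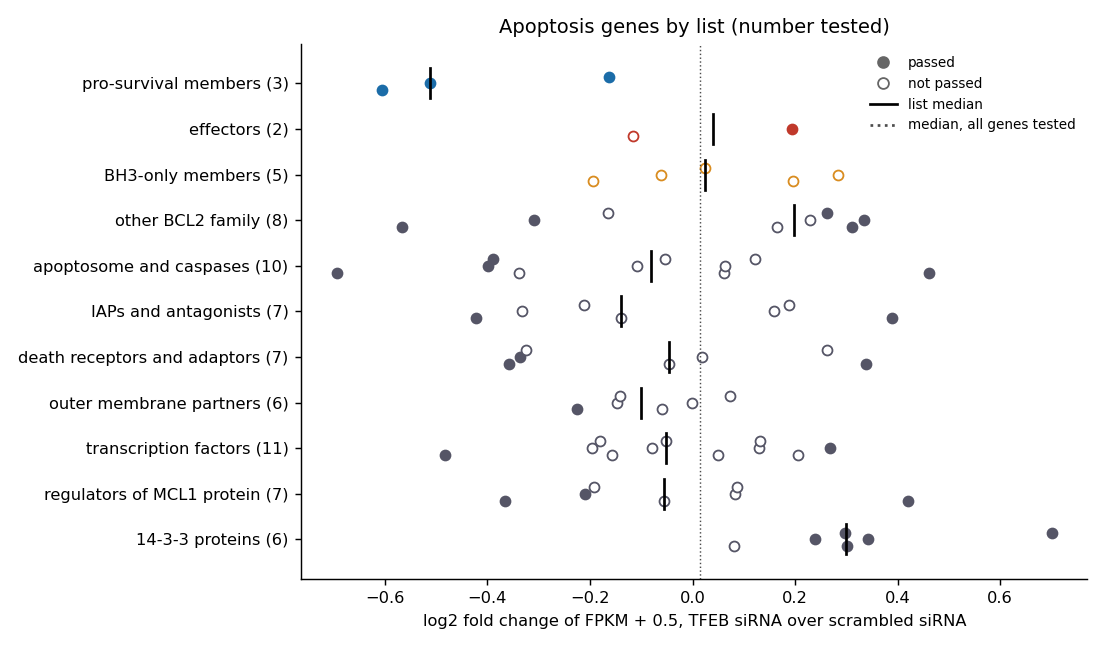
Log2 fold change of FPKM + 0.5, TFEB siRNA over scrambled siRNA, of every tested gene in each list (1 point per gene, filled where it passed at an adjusted p below 0.05), with the list's median as a black bar and the median of all tested genes (0.02) as a dotted line. The 3 pro-survival members lie to the left of 0, the 6 genes for 14-3-3 proteins lie to the right, and the other lists spread to both sides.

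Genes whose pattern was nearest to that of Mcl1 and Bcl2 were sought among tested protein-coding genes by the root-mean-square difference of log2(FPKM + 0.5) over the 6 libraries, each gene centred on its scrambled mean. Nearest to Mcl1 were Alkbh5 (0.0258), Wsb2 (0.0439) and Atp9a (0.0441). Alkbh5 averaged 17.2 ± 0.676 FPKM with TFEB siRNA and 26.3 ± 1.43 FPKM with scrambled siRNA. Nearest to Bcl2 were Arhgef10 (0.0185), Usp47 (0.0207) and Il1rap (0.0223). Usp47 averaged 13.9 ± 0.460 FPKM with TFEB siRNA and 20.1 ± 0.257 FPKM with scrambled siRNA. The search gives nearest genes for any gene, and over 6 libraries in 2 groups it mostly matches the size of the group difference. Shared control of these genes was not tested.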

How the data were processed

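RNA was extracted with TRIzol and made into Illumina libraries, per the labels' protocols. The authors deposited 1 FPKM column per library beside gene lengths, per the file headers. The submitters' processing notes name mm10. No aligner, counter, annotation release or strand setting is given in the sources read. Multiplied by gene length, 100% of the values were whole multiples of a library's own step (tolerance 1e-06), which gave derived reads; precision from reads covers counting error only.

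TFEB siRNA was set against scrambled siRNA on log2(FPKM + 0.5) with limma 3.58.1 (R 4.3.3), two-sided, with a mean-variance trend. Of 53715 genes the 12257 whose mean reached 1 FPKM were tested, and p-values were adjusted over these by the Benjamini-Hochberg method. Each adjusted p is from this fit unless another is named. Fold changes on this scale understate those of low genes. The fit was tested on simulated data with few changed genes and no replicate effect. These libraries differ in both, so that test cannot show how reliable the calls are here.

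Members and lists were chosen with earlier results of these data known. Named genes are the members, Tfeb, and in each of 8 lists the 2 called genes with the largest change each way; a few results are not reported here, and others are examples of a list's role, chosen after values were seen. Residuals of equal replicate numbers correlated at 0.382, 0.129 and 0.166, all above 0.1. Equal numbers may therefore mark pairs, but this comes from the data, not from the labels. The main fit took no pairing into account, and the replicate number as a block was an alternative. Unequal numbers 2 and 3 correlated nearly as much (0.106 and 0.0996), so the check sets replicate 1 apart more than it tells pairs 2 and 3 from each other. Gene overlaps and 3′ UTRs came from GENCODE M21, which held all 10 members, 8 with the same start and end as in the deposited table. The chi-square per gene between libraries of 1 group was 5.30 to 10.6, so none were taken as duplicates.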

Additional observations from a re-analysis of the deposited data

How the results depend on the processing

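Mcl1 and Bcl2 kept their direction and their call in all 15 alternatives (adjusted p from 3.37e-05 to 0.00677), and Tfeb in its 14. Alternatives were a pseudocount of 0.1 or 1, no filter or a filter at 5 FPKM, TPM and TMM scaling, the replicate block, each library left out, and, chosen after seeing the data, limma-voom on derived reads and leaving out replicate 1 of both groups. The count of members that rose was 0 with TPM, 2 with the replicate block and 0 to 1 with 1 library left out; the count that fell was 2 to 3. The replicate block changed, among the members, only the call of Bbc3. In the 8 lists together the block gave 20 genes that fell, leaving out replicate 1 of both groups gave 7, and leaving out 1 library gave 8 to 12 that rose and 10 to 13 that fell. The block fit called 40.2% of all tested genes, against 33.3% in the main fit. Shares for the fits with libraries left out are not given here, so these counts do not describe the lists alone. The log2 fold change of Bid, which did not pass, turned to -0.0039 with TPM and ran from -0.0078 (without TFEB siRNA replicate 2) to 0.046 with 1 library left out. Derived reads in place of FPKM weight long genes more. They gave pro-survival to effector ratios of 2.50 with TFEB siRNA and 3.43 with scrambled siRNA, pro-survival to BH3-only ratios of 1.51 and 1.99, and Bcl2 to Bax ratios of 0.729 and 0.974 in the same order. Leaving out the most abundant member of each sum removed Mcl1, Bax and Pmaip1. The pro-survival to effector ratio was then 1.27 with TFEB siRNA and 1.69 with scrambled siRNA. Its effector side was Bak1 alone, the member called higher, so this ratio does not show the effect of leaving out Mcl1 alone. The pro-survival to BH3-only ratio was 0.957 with TFEB siRNA and 1.13 with scrambled siRNA, a smaller gap than with all members. The cause of these shifts beyond gene length was not tested. Count tests with edgeR and DESeq2 were not run, since the deposited unit is FPKM. Low read numbers limit the precision for Bcl2l15, Bmf, Tfeb, Bnip1 and Bcl2l11.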
